A study of Mus musculus with 6 samples.

Results

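*Sphk2*, *Thra*, *0610040F04Rik*, *Gm43909* and *D930015M05Rik* lie on the DNA strand opposite *Dbp*, *Nr1d1*, *Bhlhe40*, *Bhlhe41* and *Cry2*, in that order, and in each of these 5 pairs the exons of a target gene of the circadian clock overlap the exons of the gene that faces it. The 10 genes, of 52636 in the tables, were chosen by symbol and were selected on their counts in the comparison of genotypes given here. Their values are therefore a description. Where members are counted as past a threshold, the count describes them as well and is no evidence, and nothing rests on their direction.

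The libraries came from tibialis anterior muscle (TA) of male C57BL/6 mice, 3 iMS*Bmal1*+/+ and 3 iMS*Bmal1*-/-. All 6 animals carried floxed *Bmal1* together with a tamoxifen-inducible Cre that is active in skeletal muscle fibers, labelled HSA-MCM. At 12 to 16 weeks of age, iMS*Bmal1*-/- mice received tamoxifen by injection, 2 mg daily over 5 days, and iMS*Bmal1*+/+ mice received the vehicle, 15% ethanol in sunflower seed oil. Muscles were taken 5 weeks later and ground to powder, RNA was depleted of ribosomal RNA, and stranded libraries were made. Recombined *Bmal1* and exposure to tamoxifen cannot be told apart in this design, and the time of day of collection is not given in the sources used here. As each library is a whole muscle, fewer cells of a type and less RNA per cell cannot be told apart either.

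Summed over the 6831 tested genes and scaled by the TMM factors, the iMS*Bmal1*+/+ libraries had totals of 2011048, 1937115 and 2634586 counts, and the iMS*Bmal1*-/- libraries of 2298189, 1669345 and 2097106. Of the 10 genes, 8 passed the filter on low counts, among them all 5 facing genes and 3 of the 5 clock genes. *Bhlhe40* and *Cry2* were counted too rarely and were not tested. The kit keeps the strand of each RNA, but the strand setting of the counting is not given in the sources used here. Across the libraries, 89.0% of counts were assigned to genes whose exons face those of another gene, a class that holds 16.7% of annotated genes. On the mitochondrial genome, *mt-Co1*, on the plus strand, had 0.926% of the counts of *mt-Nd6*, on the minus strand. *Ckm*, the creatine kinase of muscle, had 9583 counts over the 6 libraries, against 1092649 for *A930016O22Rik*, which is annotated on the opposite strand of the same locus. If the strands were exchanged in counting, counts under *Sphk2* would come from RNA of the opposite strand, such as that of *Dbp*. The same would hold for *Thra* with *Nr1d1*, *0610040F04Rik* with *Bhlhe40* and the other pairs, in both directions. Which strand's RNA gave the counts of either gene of a pair, or of any other gene named below, was not tested. Each count below is the one assigned to that gene name.

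In the molecular clock, BMAL1 and CLOCK bind E-boxes and activate genes whose products feed back on them. CRY2, and the DEC proteins encoded by *Bhlhe40* and *Bhlhe41*, repress this activation, REV-ERBα, encoded by *Nr1d1*, represses *Bmal1* itself, and DBP carries the rhythm to output genes through D-boxes. In skeletal muscle the clock is known to time genes of metabolism and contraction. Among the facing genes, *Thra* encodes the thyroid hormone receptor alpha and *Sphk2* a kinase that phosphorylates sphingosine, whereas *0610040F04Rik*, *Gm43909* and *D930015M05Rik* are annotated without a coding sequence.

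The targeted gene, *Bmal1* (*Arntl*), was counted 5, 4 and 11 times in the iMS*Bmal1*+/+ libraries against 13, 5 and 5 in the iMS*Bmal1*-/- libraries. These counts overlap and are too few to check the labels of the libraries. All 10 listed genes of skeletal muscle fibers, the labelled tissue, passed the filter, and *Myh4*, the myosin heavy chain of the fastest fibers, was the most abundant of them. Their summed level, in counts scaled to library depth with TMM (CPM), was 8235, 10583 and 9432 in iMS*Bmal1*+/+ against 11260, 11658 and 13300 in iMS*Bmal1*-/- muscle. Every iMS*Bmal1*-/- library was above every iMS*Bmal1*+/+ library in this sum. For *Ckm*, a gene of this list, the log2 fold change was 0.43 (standard error 0.12). *A930016O22Rik*, which held most counts of that locus, came to 0.13 (standard error 0.11). Whether the higher sum was one of fiber mRNA was not tested. Of the 10 genes, 2 were higher past an adjusted p of 0.05 in edgeR's quasi-likelihood test, *Mylpf*, a myosin light chain (log2 fold change 0.85, standard error 0.14, adjusted p = 0.00241), and *Pvalb*, which encodes the calcium buffer parvalbumin (0.90, standard error 0.17, adjusted p = 0.00700). Over all tested genes, 0.761% were higher past it. DESeq2 put 6 of the 10 past the threshold and limma 2, and 9 had an unadjusted p under 0.05 by edgeR. Over all genes, DESeq2 put 122 of the 52636 in the tables past it, in either direction. Only 23095 of these had any count, and DESeq2 gave no adjusted p to some of them, so its share of tested genes was larger. Limma put 122 of 6831 past it, and 814 of 6831 had an unadjusted p under 0.05 by edgeR.

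Few markers of other cells had enough counts for a test, 2 each for endothelium and fibroblasts, 1 each for adipocytes, blood and macrophages, and 0 for Schwann and satellite cells. Of the genes tested, edgeR, DESeq2 and limma called 0, with 1, *Csf1r*, at an unadjusted p under 0.05. *Cd163*, a macrophage gene outside the list that was chosen after its values were seen, was lower past edgeR's threshold (log2 fold change -0.98, standard error 0.14, adjusted p = 0.000324). *Cd68*, a macrophage gene of the list with too few counts for a test, also named after its values were seen, went the other way, at 2.98, 2.06 and 1.14 CPM in iMS*Bmal1*+/+ against 3.05, 3.59 and 4.77 in iMS*Bmal1*-/- libraries. For macrophages the summed level was 80.6, 84.1 and 55.8 CPM in iMS*Bmal1*+/+ against 60.0, 49.1 and 62.5 in iMS*Bmal1*-/- libraries, most of it *Csf1r*, and *Adgre1* had 0 counts throughout. Endothelial genes, with *Egfl7* the most abundant, summed to 18.4, 20.6 and 13.7 CPM in iMS*Bmal1*+/+ and to 21.3, 24.6 and 26.7 in iMS*Bmal1*-/-, without overlap. Sums overlapped for the other lists. Their means in iMS*Bmal1*+/+ and iMS*Bmal1*-/- muscle were 23.1 and 27.3 CPM for fibroblasts (led by *Col3a1*), 167 and 183 for blood (led by *Alas2*, with *Hba-a1*, *Hba-a2*, *Hbb-bs* and *Hbb-bt* at 0 to 3 counts per library), 3.18 and 5.85 for Schwann cells (led by *Pmp22*) and 1.22 and 1.18 for satellite cells (led by *Pax7*, with *Chodl* at 0). Of adipocyte genes, *Lep* had 0 counts and *Fabp4*, the most abundant, had means of 8.25 and 9.92 CPM. A count of 0 allows up to 3 counts in a library, which is at most 1.80 CPM and covers counting error only. As the strand behind the counts was not tested, low counts of a marker do not show that its cells were few. Nor does a higher sum show that its cells, or their mRNA, were more. The fiber and endothelial sums differed between genotypes without overlap, and their part in the values of the pairs was not tested.

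**Figure D1:**
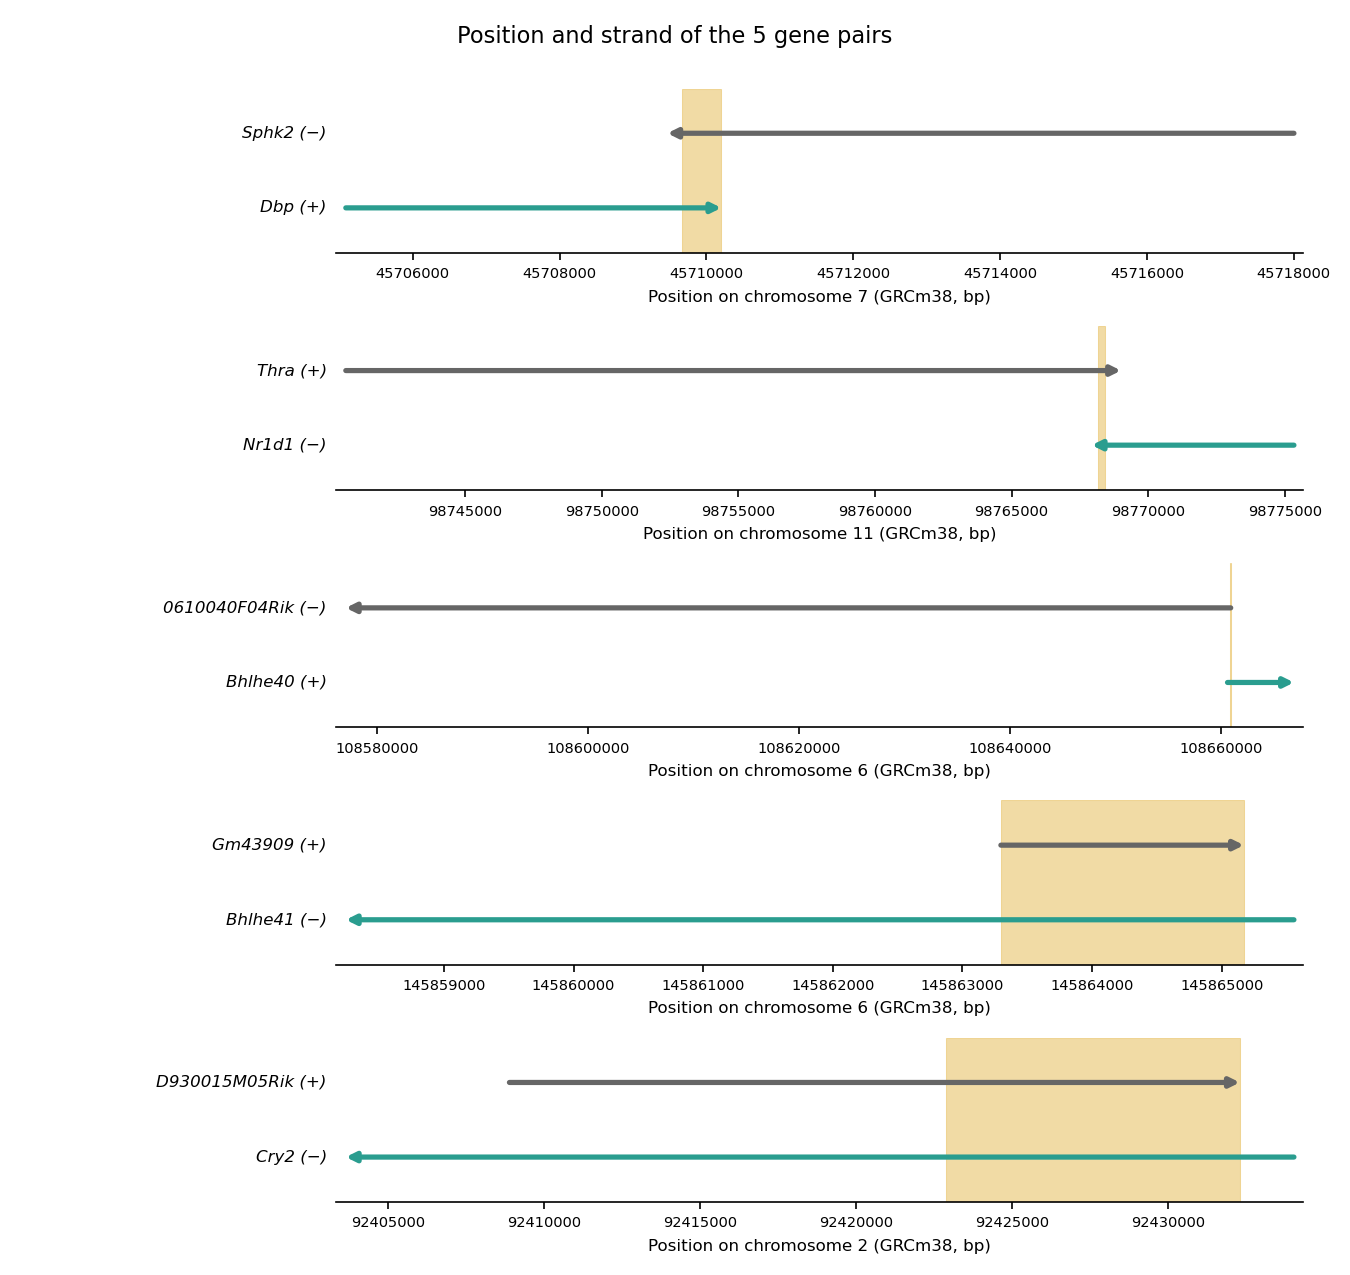
Each of the 5 panels shows a pair to scale on GRCm38, with the position in bp on the horizontal axis and an arrow from start to end of each gene (facing gene above in gray, clock gene below in green). Shading runs from the first to the last overlapping exon base, a stretch that also holds introns for *Bhlhe41* and *Cry2*; *Sphk2* and *Dbp* share 539 bases and *0610040F04Rik* and *Bhlhe40* share 118.

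*Dbp* and *Sphk2* run toward each other on chromosome 7 of GRCm38. *Dbp* occupies 45705088 to 45710203 on the plus strand and *Sphk2* 45709467 to 45718002 on the minus strand. Their exons share 539 bp, chr7:45709665-45710203, which are untranslated in *Sphk2*, and 213 bp of which are coding in *Dbp*. *Sphk2* had 363, 343 and 564 counts in iMS*Bmal1*+/+ libraries against 139, 84 and 113 in iMS*Bmal1*-/- libraries. No iMS*Bmal1*-/- library came near the lowest iMS*Bmal1*+/+ library, also after scaling for depth (60.5 CPM at most against at least 177). Its mean level was 191 ± 20.4 CPM (SD, n = 3) in iMS*Bmal1*+/+ against 54.9 ± 5.16 (SD, n = 3) in iMS*Bmal1*-/- muscle, a log2 fold change of -1.79 (standard error 0.13). For *Dbp* the counts were 41, 36 and 52 in iMS*Bmal1*+/+ against 42, 19 and 24 in iMS*Bmal1*-/- libraries. In CPM, iMS*Bmal1*-/- replicate 1, at 18.3, was just under the lowest iMS*Bmal1*+/+ library, at 18.6, and the other 2 iMS*Bmal1*-/- libraries were lower, at 11.4 each. The log2 fold change of *Dbp* was -0.50 (standard error 0.26), from 19.6 ± 0.913 to 13.7 ± 3.96 CPM (SD, n = 3). *Sphk2* was thus lower by more than *Dbp*, and their ratio differed between genotypes. As log2 of the facing count plus 0.5 over the clock gene's count plus 0.5, the ratio was 3.13, 3.23 and 3.43 in iMS*Bmal1*+/+ libraries against 1.71, 2.12 and 2.21 in iMS*Bmal1*-/- libraries. The ratio was lower in all 3 iMS*Bmal1*-/- libraries than in any iMS*Bmal1*+/+ library, with a change of -1.25. *Sphk2* also faces *Rpl18*, a gene of the large ribosomal subunit, over 373 bp, and *Rpl18*, chosen after its values were seen, had 108, 84 and 168 counts in iMS*Bmal1*+/+ against 130, 102 and 104 in iMS*Bmal1*-/- libraries. Its CPM overlapped between genotypes, at a log2 fold change of 0.04 (standard error 0.17).

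*Nr1d1* and *Thra* also converge, on chromosome 11, where *Thra* spans 98740638 to 98769006 on the plus strand and *Nr1d1* 98767932 to 98775333 on the minus strand. The shared stretch, chr11:98768157-98768419, is 263 bp long and is coding throughout in *Thra*, and 197 bp of it are coding in *Nr1d1*. *Thra* had 733, 596 and 958 counts in iMS*Bmal1*+/+ against 441, 287 and 384 in iMS*Bmal1*-/- libraries. Scaled for depth, every iMS*Bmal1*-/- library (172 to 192 CPM) was below every iMS*Bmal1*+/+ library (308 to 364 CPM), a log2 fold change of -0.92 (standard error 0.11). *Nr1d1* had 281, 258 and 382 counts in iMS*Bmal1*+/+ against 498, 372 and 393 in iMS*Bmal1*-/- libraries. It was the opposite of *Thra*, with all iMS*Bmal1*-/- libraries (187 to 223 CPM) above all iMS*Bmal1*+/+ libraries (133 to 145 CPM). The log2 fold change of *Nr1d1* was 0.58 (standard error 0.11), from 139 ± 5.91 to 209 ± 18.9 CPM (SD, n = 3). Their log2 ratio was 1.38, 1.21 and 1.33 in iMS*Bmal1*+/+ against -0.18, -0.37 and -0.03 in iMS*Bmal1*-/- libraries. *Thra* was the more counted gene in all iMS*Bmal1*+/+ libraries and *Nr1d1* in all iMS*Bmal1*-/- libraries, and *Thra* made up 71.2 ± 1.28% of the pair's counts in iMS*Bmal1*+/+ against 46.6 ± 2.95% in iMS*Bmal1*-/- muscle (SD, n = 3). Counted together, the pair had 504, 441 and 509 CPM in iMS*Bmal1*+/+ against 409, 395 and 371 in iMS*Bmal1*-/- libraries. The sum was lower in each iMS*Bmal1*-/- library than in any iMS*Bmal1*+/+ library, but by less than *Thra* alone, at a log2 fold change of -0.31 (standard error 0.10).

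*Bhlhe40* and *0610040F04Rik* start next to each other on chromosome 6 and are transcribed away from each other. *Bhlhe40* spans 108660629 to 108666925 on the plus strand and *0610040F04Rik*, annotated as antisense, 108577039 to 108660934 on the minus strand, and their exons share 118 bp at chr6:108660817-108660934. *0610040F04Rik* had 290, 277 and 451 counts in iMS*Bmal1*+/+ against 149, 101 and 120 in iMS*Bmal1*-/- libraries. After scaling, the iMS*Bmal1*-/- libraries lay between 57.2 and 64.8 CPM and the iMS*Bmal1*+/+ libraries between 143 and 171, without overlap. The log2 fold change was -1.33 (standard error 0.13), from 153 ± 15.9 to 60.9 ± 3.82 CPM (SD, n = 3). *Bhlhe40* had 3, 5 and 5 counts in iMS*Bmal1*+/+ against 3, 3 and 10 in iMS*Bmal1*-/- libraries. The groups overlapped, and at counts this low a difference in *Bhlhe40* was not detectable. Why the counts were low was not tested. The log2 ratio of the pair was 6.38, 5.66 and 6.36 in iMS*Bmal1*+/+ against 5.42, 4.86 and 3.52 in iMS*Bmal1*-/- libraries. All iMS*Bmal1*-/- ratios were below all iMS*Bmal1*+/+ ratios, by -1.53 on average, although the divisor is at most 10 counts in each library.

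*Bhlhe41* and *Gm43909* overlap on the same chromosome. *Gm43909*, annotated as a transcript of type TEC, spans 145863297 to 145865172 on the plus strand, inside *Bhlhe41* (145858243 to 145865558, minus strand). Exons of *Bhlhe41* cover 1280 bp of it in 3 segments, 68.2% of its length. *Gm43909* had 814, 903 and 1643 counts in iMS*Bmal1*+/+ against 976, 444 and 708 in iMS*Bmal1*-/- libraries. In CPM, iMS*Bmal1*-/- replicate 1 (425) was above iMS*Bmal1*+/+ replicate 1 (405), so the groups overlapped, while the other 2 iMS*Bmal1*-/- libraries (266 and 338) were below all iMS*Bmal1*+/+ libraries. The mean was 498 ± 113 CPM in iMS*Bmal1*+/+ against 343 ± 79.5 in iMS*Bmal1*-/- muscle (SD, n = 3), a log2 fold change of -0.54 (standard error 0.16). *Bhlhe41* had 18, 21 and 22 counts in iMS*Bmal1*+/+ against 27, 30 and 31 in iMS*Bmal1*-/- libraries. Like *Nr1d1*, it was higher in each iMS*Bmal1*-/- library (11.7 to 18.0 CPM) than in any iMS*Bmal1*+/+ library (8.35 to 10.8 CPM). The log2 fold change of *Bhlhe41* was 0.65 (standard error 0.29), from 9.38 ± 1.30 to 14.8 ± 3.11 CPM (SD, n = 3). Their log2 ratio was 5.46, 5.39 and 6.19 in iMS*Bmal1*+/+ against 5.15, 3.87 and 4.49 in iMS*Bmal1*-/- libraries. It was lower in all 3 iMS*Bmal1*-/- libraries, with a change of -1.18, although *Gm43909* alone overlapped.

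*Cry2* and *D930015M05Rik* overlap on chromosome 2, where *D930015M05Rik* (92408892 to 92432308, plus strand) lies inside *Cry2* (92403646 to 92434043, minus strand) and shares 295 bp of exons with it in 2 segments. *D930015M05Rik* had 131, 94 and 222 counts in iMS*Bmal1*+/+ against 130, 89 and 114 in iMS*Bmal1*-/- libraries. The iMS*Bmal1*-/- libraries, at 53.3 to 56.6 CPM, lay within the range of the iMS*Bmal1*+/+ libraries, 48.5 to 84.3. The log2 fold change was -0.28 (standard error 0.18), from 66.0 ± 17.9 to 54.7 ± 1.66 CPM (SD, n = 3). *Cry2* had 2, 3 and 5 counts in iMS*Bmal1*+/+ against 2, 5 and 7 in iMS*Bmal1*-/- libraries, which overlap and are close to the floor of 3 counts. The log2 ratio was 5.72, 4.75 and 5.34 in iMS*Bmal1*+/+ against 5.71, 4.02 and 3.93 in iMS*Bmal1*-/- libraries, with a change of -0.72. iMS*Bmal1*-/- replicate 1 had the next to highest ratio of all 6 libraries, so that this was the pair whose ratios overlapped.

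**Figure D2:**
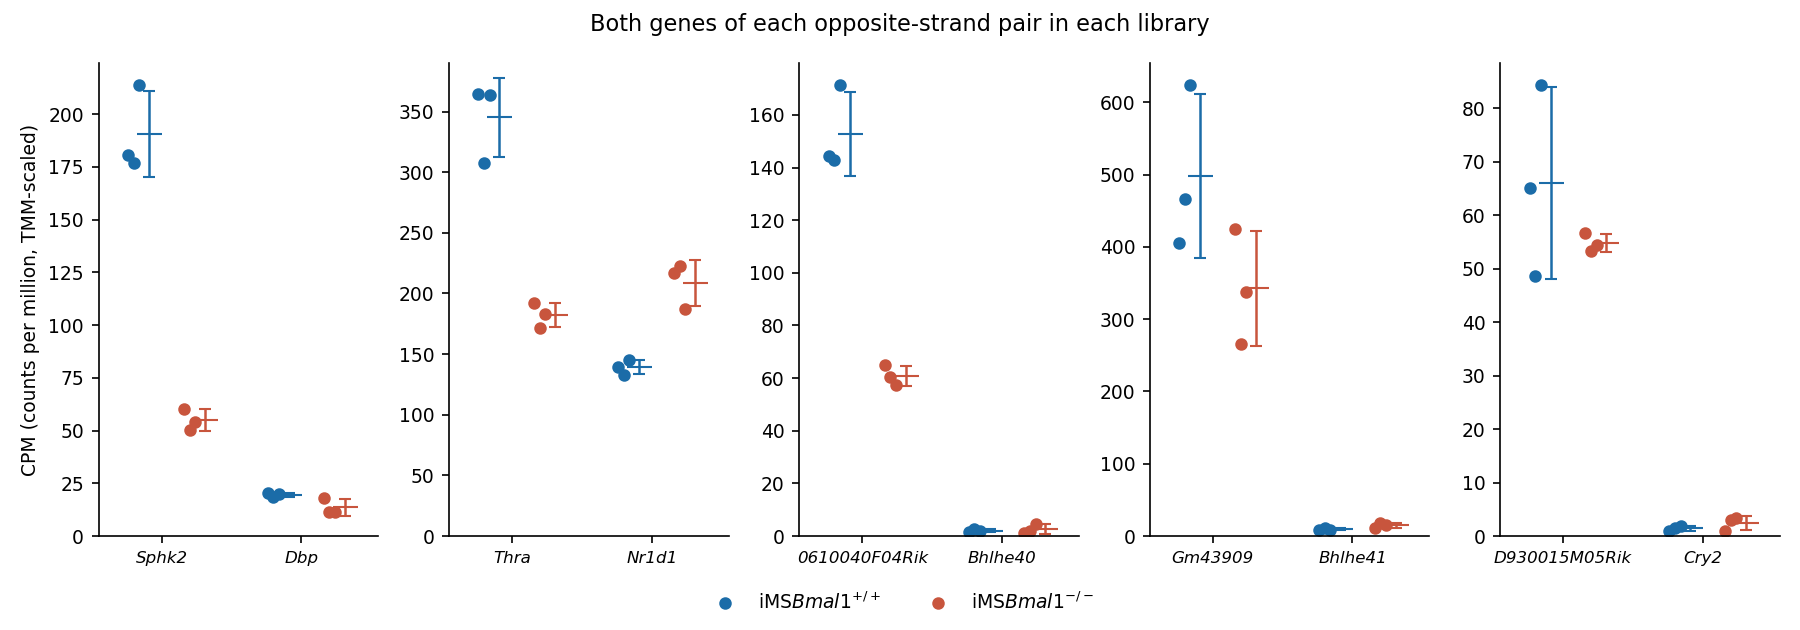
CPM (vertical axis, linear from 0 with its own range in each panel) of the facing gene (left) and the clock gene (right) of each pair, with a point per library and the mean ± SD of n = 3 beside it. *Nr1d1* was higher in iMS*Bmal1*-/- (209 CPM on average) than in iMS*Bmal1*+/+ muscle (139 CPM), while *Thra*, *Sphk2* and *0610040F04Rik* were lower without overlap.

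Side by side, 3 of the 5 facing genes (*Sphk2*, *Thra* and *0610040F04Rik*) were lower past edgeR's threshold, where 1.07% of the 6831 tested genes were, and 1 clock gene (*Nr1d1*) was higher, where 0.761% were (1.83% in either direction). The other tested members, *Dbp*, *Bhlhe41*, *Gm43909* and *D930015M05Rik*, were not past it, although *Gm43909* was by DESeq2, with no filter, with the replicate number as a block, and without iMS*Bmal1*+/+ replicate 1 or iMS*Bmal1*-/- replicate 1. CPM did not overlap between genotypes for 4 members that were lower (*Sphk2*, *Dbp*, *Thra* and *0610040F04Rik*), against 8.45% of tested genes, and for 2 that were higher (*Nr1d1* and *Bhlhe41*), against 8.84%. Since this contrast chose the members, nothing is read from these counts. Without iMS*Bmal1*-/- replicate 1 or replicate 2, *Nr1d1* was no longer past the threshold, at a log2 fold change of 0.55 or 0.54.

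The change in ratio was negative in all 5 pairs, from -1.53 for *0610040F04Rik* to *Bhlhe40* to -0.72 for *D930015M05Rik* to *Cry2*. Among all 1298 pairs of overlapping opposite-strand genes with both genes tested, 3 of them member pairs, the log2 ratio of the more to the less counted gene changed by a median of -0.07, and the 5th and 95th percentiles were -0.85 and 0.61. The ratio did not overlap between genotypes in 15.7% of these pairs and changed by at least 1 in 4.24%. Over the same pairs the less counted gene had a median log2 fold change of 0.04 and the more counted gene one of -0.03. Summed counts gave log2 fold changes of -1.61 for *Sphk2* with *Dbp* (standard error 0.13) and -1.29 for *0610040F04Rik* with *Bhlhe40* (standard error 0.13). They gave -0.50 for *Gm43909* with *Bhlhe41* (standard error 0.15) and -0.25 for *D930015M05Rik* with *Cry2* (standard error 0.18). In these 4 pairs the facing gene held most of the counts, and the sum followed it.

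**Figure D3:**
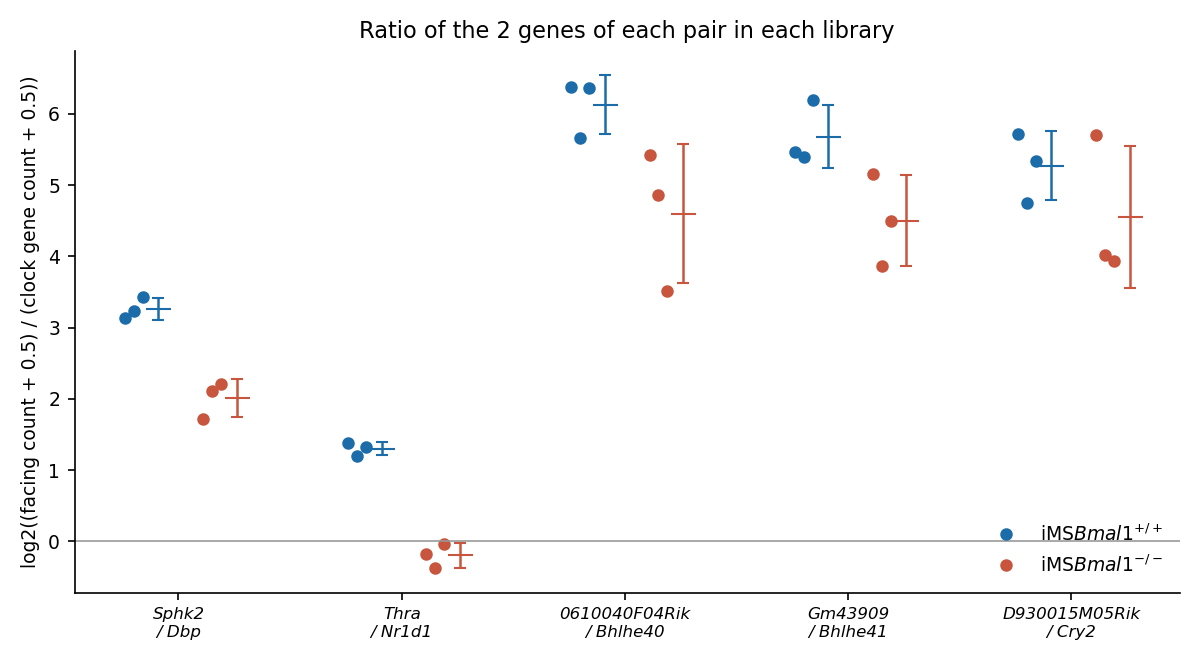
Log2 of the facing gene's count plus 0.5 over the clock gene's count plus 0.5 (vertical axis) for each pair (horizontal axis), with a point per library and the mean ± SD of n = 3 beside it. The gray line marks equal counts, which *Thra* and *Nr1d1* crossed from a mean of 1.30 in iMS*Bmal1*+/+ to -0.19 in iMS*Bmal1*-/- muscle.

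Levels of different genes were compared as CPM per kb of exon, for the counts as assigned to each gene name. If the counts of a gene came from the RNA of the facing strand, this order would not be that of the RNAs named, and this was not tested. In iMS*Bmal1*+/+ muscle *Gm43909* had the highest level per kb of the 10 genes, 266 ± 60.2 CPM per kb (SD, n = 3). *Thra* (74.8 ± 7.06) and *0610040F04Rik* (71.1 ± 7.41) came next in CPM per kb and did not differ beyond their spread, and *D930015M05Rik* (55.4 ± 15.0), *Sphk2* (45.8 ± 4.92) and *Nr1d1* (45.3 ± 1.92) followed within the spread of *D930015M05Rik*. The other clock genes were lower per kb, *Dbp* at 6.54 ± 0.305, *Bhlhe41* at 1.40 ± 0.193, *Bhlhe40* at 0.423 ± 0.117 and *Cry2* at 0.234 ± 0.0721. In iMS*Bmal1*-/- muscle *Nr1d1* was second in CPM per kb, at 67.9 ± 6.15, after *Gm43909* at 183 ± 42.4. *D930015M05Rik* and *Thra* (39.5 ± 2.17) followed it, and *0610040F04Rik* (28.3 ± 1.78) and *Sphk2* (13.2 ± 1.24) had moved down the order. *Dbp*, *Bhlhe41*, *Bhlhe40* and *Cry2* kept their order per kb, at 4.58, 2.21, 0.558 and 0.380 CPM, and the last of these, *Bhlhe40* and *Cry2*, did not differ beyond their spread.

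For the more counted gene of each pair, the tested genes with the most similar log2 CPM over the 6 libraries were found by Pearson's r as a description. This r takes in the difference between genotypes, on which the members were selected, and nothing is read from its size. *Sphk2* and *0610040F04Rik*, on different chromosomes, were each other's most similar gene (r = 0.997), and *Car3*, a carbonic anhydrase of muscle, came next for both (r = 0.994 and 0.997). *Car3* had 16.4, 13.9 and 21.6 CPM in iMS*Bmal1*+/+ against 4.35, 3.59 and 3.34 in iMS*Bmal1*-/- libraries. Like *Sphk2* and *0610040F04Rik*, it was highest in iMS*Bmal1*+/+ replicate 3. *Thra* was closest to *Pigf* (0.997) and *Gm45411* (0.992), *Gm43909* to *Chpf2* (0.989) and *Gm44408* (0.984), and *D930015M05Rik* to *Gm43118* (0.997) and *Mettl23* (0.989).

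Of 33 other genes of the clock, 11 were tested, and 1, *Wee1*, was past an adjusted p of 0.05 over all genes tested, as were 125 of all 6831 (1.83%). *Wee1*, a clock-controlled kinase that delays entry into mitosis, had 35, 56 and 62 counts in iMS*Bmal1*+/+ against 9, 10 and 8 in iMS*Bmal1*-/- libraries. As for the pairs, which strand's RNA gave the counts under this and the other clock gene names was not tested. The level assigned to *Wee1* was lower in every iMS*Bmal1*-/- library and fell by 2.36 on the log2 scale (standard error 0.32, adjusted p = 0.000283, edgeR). These p-values set the difference between genotypes against the spread between the mice of each group. DESeq2 gave *Wee1* no adjusted p, since its filter on mean counts removed it (unadjusted p = 1.01e-07), and limma called it. At an unadjusted p under 0.05 there were 2 of the 11, against 814 of all 6831, the other being *Usp2*, named after its values were seen (0.79, standard error 0.34, adjusted p = 0.345, edgeR). The median log2 fold change of the 11 was -0.08, against -0.0009 over all tested genes. Of those not past the threshold, *Tef*, a relative of *Dbp*, came to 0.07 (log2, standard error 0.19), *Clock*, the partner of *Bmal1*, to -0.08 (standard error 0.23), and *Csnk1d*, a kinase of PER proteins, to -0.39 (standard error 0.24). The other 22 did not pass the filter, and 8 of the 33 had at most 3 counts in every library, among them *Per3* with 2, 2 and 3 counts in iMS*Bmal1*+/+ against 0, 1 and 1 in iMS*Bmal1*-/- libraries.

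For each listed clock gene with exons that face another gene, the facing gene with the largest overlap was taken. This gave 10 genes, and 6 of them were tested. Over all 6831 tested genes, edgeR put 125 past the threshold and 814 at an unadjusted p under 0.05, and limma called 122. DESeq2 called 122 of the 52636 in the tables, of which 23095 had any count and not all received an adjusted p. Of the 6, edgeR put 0 past the threshold, with 1 at an unadjusted p under 0.05, and DESeq2 called 1 and limma 0. That gene was *Gm15511*, which faces *Rora*, an activating nuclear receptor of the clock. It had 209, 201 and 356 counts in iMS*Bmal1*+/+ against 170, 136 and 169 in iMS*Bmal1*-/- libraries, without overlap in CPM (74.0 to 81.5 in iMS*Bmal1*-/-, at least 104 in iMS*Bmal1*+/+). On the log2 scale it differed by -0.55 (standard error 0.14, adjusted p = 0.0543 by edgeR and 0.0372 by DESeq2), while *Rora* was counted 14, 17 and 19 times in iMS*Bmal1*+/+ against 20, 13 and 10 times in iMS*Bmal1*-/- libraries. For *Gm16059*, which faces *Csnk1e*, the log2 fold change came to -0.24 (standard error 0.14). The median of the 6 was -0.26, where the 5 member facing genes, selected on this contrast, had a median of -0.92.

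The tested genes of the pathways of *Thra* and *Sphk2* gave 0 calls by edgeR, DESeq2 or limma, and 0 genes at an unadjusted p under 0.05. Most listed genes had too few counts for a test, and the strand behind the counts was not tested. These values therefore do not show that the pathways were unchanged. Of 13 other genes of thyroid hormone signalling 6 were tested, with a median log2 fold change of 0.14. *Ncor1*, a corepressor of thyroid hormone receptors and of REV-ERBα, had 458 ± 31.8 CPM in iMS*Bmal1*+/+ against 404 ± 19.1 in iMS*Bmal1*-/- muscle (SD, n = 3), a log2 fold change of -0.18 (standard error 0.10). For *Med1*, a coactivator, it was 0.13 (standard error 0.16). Of 16 other genes of sphingosine phosphate metabolism 4 were tested, with a median of -0.14. On the log2 scale the ceramidase *Asah1* came to 0.16 (standard error 0.26), the phosphatase *Sgpp2* to -0.49 (standard error 0.31) and the transporter *Mfsd2b* to -0.03 (standard error 0.32). *Sphk1*, the other sphingosine kinase, had 2 to 15 counts per library and was not tested.

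RefSeq promoters on GRCm38.p6, from 250 bases before to 50 after a start, were found for 7 of the 10 genes, with 9 starts. *Thra*, *Bhlhe40* and *Gm43909* had no entry. The promoters found were searched on both strands for the E-box CACGTG, which reads the same on both, the D-box TTATGTAA, in reverse TTACATAA, and AGGTCA, whose reverse complement is TGACCT, the core shared by elements for REV-ERBα, ROR and thyroid hormone receptors. Of all 32851 promoters in the table, 7.15% hold the E-box, 0.938% the D-box and 16.3% the core. *Bhlhe41* held 1 E-box, at chr6:145865568-145865573. *0610040F04Rik* held 1 core at the start next to *Bhlhe40*, at chr6:108661143-108661148, and *D930015M05Rik* 1 at chr2:92408753-92408758. *Dbp*, *Nr1d1*, *Cry2*, both starts of *Sphk2* and the other start of *0610040F04Rik* held none of the 3, which says only that these letters are not in these windows. The promoters with a match are shown, with those of *Dbp* and *Nr1d1*, whose facing genes were lower, for comparison. Each is the longest stretch before the start that no annotated exon covers, written on the gene's own strand from 5′ to 3′ with the motif in capitals. The stretch of *0610040F04Rik* lies in an intron of *Bhlhe40* and that of *D930015M05Rik* in an intron of *Cry2*.
*Bhlhe41*, chr6:145865559-145865670, minus strand: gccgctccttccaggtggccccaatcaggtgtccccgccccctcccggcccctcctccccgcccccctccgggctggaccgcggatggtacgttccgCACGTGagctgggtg
*0610040F04Rik*, chr6:108660993-108661160, minus strand: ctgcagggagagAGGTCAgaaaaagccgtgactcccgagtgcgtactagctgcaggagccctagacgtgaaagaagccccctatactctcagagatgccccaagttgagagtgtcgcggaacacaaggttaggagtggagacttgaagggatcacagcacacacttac
*D930015M05Rik*, chr2:92408642-92408891, plus strand: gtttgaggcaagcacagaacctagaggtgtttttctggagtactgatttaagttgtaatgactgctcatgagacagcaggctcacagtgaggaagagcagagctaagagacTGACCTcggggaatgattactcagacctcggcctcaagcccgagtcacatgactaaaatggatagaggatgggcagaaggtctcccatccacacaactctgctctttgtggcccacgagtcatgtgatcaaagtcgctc
*Dbp*, chr7:45704997-45705087, plus strand: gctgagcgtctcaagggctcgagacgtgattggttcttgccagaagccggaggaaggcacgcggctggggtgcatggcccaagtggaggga
*Nr1d1*, chr11:98775378-98775627, minus strand: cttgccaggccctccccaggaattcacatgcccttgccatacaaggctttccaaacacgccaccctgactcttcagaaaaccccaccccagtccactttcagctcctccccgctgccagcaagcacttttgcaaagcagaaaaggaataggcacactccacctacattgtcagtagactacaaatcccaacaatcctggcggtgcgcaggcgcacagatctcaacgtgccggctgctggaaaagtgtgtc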

How the data were processed

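The authors aligned reads to mm10 with HISAT2, counted them on genes with HTSeq and deposited raw counts per gene. Tool versions and the annotation release are not given in the sources used here. The deposited normalized signal was each raw count divided by 1 constant per library, equal to the DESeq2 size factor (0.828 to 1.26). Raw counts were used, 0 sample columns were left out, and genes were looked up by identifier in GENCODE M21, on GRCm38 (147 of 52636 were not found).

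Genotypes were compared with edgeR 4.0.16 in R 4.3.3 (TMM, filter on low counts, two-sided quasi-likelihood test, Benjamini-Hochberg adjusted p under 0.05 over 6831 genes). CPM are counts scaled to the TMM-adjusted total of the tested genes. Alternatives were DESeq2 1.42.0, limma 3.58.1 on log2 of the normalized signal plus 1, other filters and normalizations, other pseudocounts for the ratios, a block for replicate number, and fits without 1 library at a time. The tests were tried on simulated data. Within a genotype, pairs of libraries differed by more than Poisson noise (reduced chi-square 2.88 to 10.1). Pairs with iMS*Bmal1*+/+ replicate 3 were at 10.1 and 6.63, and the others at 2.88 to 4.11.

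The members and lists were chosen with earlier results of these data known. Besides the members, the genes named were list members past the threshold, up to 3 others per list by mean CPM (not all are named), the 2 genes most similar to the more counted gene of each pair, and the top marker of each cell type. *Rpl18*, *Cd163*, *Cd68*, *Usp2*, *Per3*, *Sphk1*, the genes at 0 counts and those on strand layout fall outside this rule and were chosen after their values were seen. For *Usp2* 2 facing genes tied in overlap and both were kept. Figures were drawn with matplotlib 3.10.9.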

Additional observations from a re-analysis of the deposited data

How the results depend on the processing

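The count of genes past the threshold, 125 by edgeR, was 219 with no filter on low counts and ran from 60 to 109 with 1 library left out. Of iMS*Bmal1*-/- libraries, dropping replicate 2 gave 60 and dropping replicate 1 gave 66, in fits with fewer samples. Of the 125, 41.6% were higher (52 against 73 lower). With library totals alone this was 54.2% (65 against 55). The count of listed clock genes, 1, was 0 by DESeq2, which gave *Wee1* no adjusted p, and 0 with at least 10 counts in every library, a filter that *Wee1* did not pass. It was 1 with any single library left out. In the 11 other alternatives that gave *Wee1* an adjusted p, it was past the threshold (2.61e-10 to 0.00512). The count of genes facing them, 0, was 1 by DESeq2 and 1 with no filter on low counts. That for the pathways of *Thra* and *Sphk2* was 0 in all 13 alternatives, which were chosen after seeing the data. Why the other counts moved was not tested.

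With the replicate number as a block (replicate block), 220 genes were past the threshold, and the count of genes facing listed clock genes was 1 (*Gm15511*). Deviations of libraries with the same number correlated at -0.0373, -0.0166 and -0.0289, and those with different numbers at -0.004 to 0.0353. The numbers thus gave no sign that they pair the samples, but with 3 libraries per genotype these correlations cannot exclude it.

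The members were selected on this contrast, so their values over the alternatives are a description. The change in ratio kept its sign in all 5 pairs, as did the log2 fold change of each of the 8 tested members, while *Bhlhe40* and *Cry2* were fitted only with no filter (0.37 and 0.58) and by DESeq2 (0.37 and 0.63). Over the alternatives the log2 fold change ran from -1.88 to -1.70 for *Sphk2*, from -1.39 to -1.24 for *0610040F04Rik* and from 0.54 to 0.66 for *Nr1d1*. For *Thra* the value nearest 0 was -0.87, with library totals alone. For *Gm43909* it ran from -0.73 to -0.34 when 1 library was left out, and it was past the threshold in 5 of 13 alternatives (DESeq2, no filter, the block, and without iMS*Bmal1*+/+ replicate 1 or iMS*Bmal1*-/- replicate 1). *Nr1d1* was past it in 11 of 13. *Dbp* ran from -0.78 to -0.37 (when iMS*Bmal1*-/- replicate 1 or 3 was dropped), and *D930015M05Rik* from -0.46 to -0.06 (when iMS*Bmal1*+/+ replicate 2 or 3 was dropped). The change in ratio ran from -1.94 to -0.99 (when iMS*Bmal1*-/- replicate 1 or 3 was dropped) for *0610040F04Rik* to *Bhlhe40*, and from -1.29 to -0.40 for *D930015M05Rik* to *Cry2* with the same libraries dropped. The log2 fold change of the summed counts, -0.50 for *Gm43909* with *Bhlhe41* and -0.25 for *D930015M05Rik* with *Cry2*, was -0.32 and -0.03 when iMS*Bmal1*+/+ replicate 3 was dropped, and the former was past the threshold in 3 of 9 alternatives. *Bhlhe40* and *Cry2* had at most 10 counts per library, and why was not tested.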
